A study of Homo sapiens with 4 samples.

Results

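ChIP-seq (sequencing of immunoprecipitated chromatin) for acetylated histone H3 was done in the human multiple myeloma cell line H929, and the regions described here are the peaks that lay inside introns in cells overexpressing AIMP1. A peak is a stretch of the genome that the authors listed as enriched for immunoprecipitated fragments. Every row of the deposited overexpression list whose annotation text begins with the word Intron was taken, which gave 484 of 9780 overexpression peaks (4.95%, 95% interval 4.53 to 5.40) and 484 of 14608 peaks in both lists. The groups were H929 cells labelled as overexpression of AIMP1, a scaffold protein among the tRNA synthetases, and H929 cells labelled wild type. Both were fixed in 1% formaldehyde for 10 minutes. The labels name no vector, promoter or empty-vector control, and do not say whether the overexpressing cells were a clone or a pool. Each group had 1 acetyl-H3 library, so no test between groups was possible and no difference below has a replicate check. The intervals are 95% intervals that cover counting error over peaks only, and the read depth is unknown.

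Acetylation of histone H3 loosens chromatin and marks active promoters and enhancers. Introns hold many enhancers, often of the gene they lie in, and also hold internal promoters from which shorter transcripts start. Plasma cells and myeloma cells carry strong acetylation over the genes of antibody secretion and plasma cell identity. Promoter peaks were listed for 7 of 10 plasma cell markers with overexpression (PRDM1, XBP1, IRF4, SDC1, TNFRSF17, JCHAIN and MZB1) and for 2 in wild-type cells (MZB1 and POU2AF1), where 33.8% and 7.37% of all protein-coding genes had one. None of the 6 T and NK cell, 5 myeloid, 3 erythroid and 4 B cell stage markers had one with overexpression, and KLRD1 was the 1 with a wild-type promoter peak. In a longer list of 25 T cell, NK cell and myeloid genes, 3 (12%) had an overexpression promoter peak. The authors' annotation put peaks up to 3 kb from a transcription start site in the promoter class. The nearest intronic peaks, in TIMM44 and DHX16, lay 3015 and 3039 bp from a start, and the farthest promoter peak lay at 3000 bp.

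Some intronic peaks nonetheless lay at or beside a gene start in RefSeq. Of the 484 peaks, 12 (2.48%, 1.29 to 4.29) overlapped a window from 250 bases before to 50 bases after the start of a RefSeq gene, against 74.4% of the promoter peaks and 8.66% of the distal intergenic peaks of the same list and 0.343% of the 1459 intronic wild-type peaks. They are shown because they include 3 of the 10 members with the highest fold enrichment. For 4 genes, 1 window each is printed below, picked with its values in view; FAM193A has 1 more RefSeq window under these peaks and LOC101928512 has 3 more. The windows are 300 bases each, read 5′ to 3′ along the strand of the gene from the RefSeq table of GRCh38.p14, with capitals marking the GC box GGGCGG on either strand. FAM193A is chr4:2536397-2536696, plus strand; HIP1 is chr7:75639193-75639492, minus strand; TMEM181 is chr6:158559841-158560140, plus strand; LOC101928512 is chr1:167454805-167455104, plus strand.
FAM193A: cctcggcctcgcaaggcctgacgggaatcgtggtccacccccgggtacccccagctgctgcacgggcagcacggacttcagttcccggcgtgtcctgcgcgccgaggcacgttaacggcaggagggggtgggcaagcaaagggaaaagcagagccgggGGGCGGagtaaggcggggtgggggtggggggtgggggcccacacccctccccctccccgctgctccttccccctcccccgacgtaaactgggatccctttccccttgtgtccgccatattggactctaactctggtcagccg
HIP1: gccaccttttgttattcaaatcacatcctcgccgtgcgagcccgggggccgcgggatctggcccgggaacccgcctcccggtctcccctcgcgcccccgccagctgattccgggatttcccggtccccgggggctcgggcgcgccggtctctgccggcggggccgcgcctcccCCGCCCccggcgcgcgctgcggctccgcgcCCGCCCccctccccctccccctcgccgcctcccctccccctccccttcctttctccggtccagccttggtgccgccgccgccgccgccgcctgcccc
TMEM181: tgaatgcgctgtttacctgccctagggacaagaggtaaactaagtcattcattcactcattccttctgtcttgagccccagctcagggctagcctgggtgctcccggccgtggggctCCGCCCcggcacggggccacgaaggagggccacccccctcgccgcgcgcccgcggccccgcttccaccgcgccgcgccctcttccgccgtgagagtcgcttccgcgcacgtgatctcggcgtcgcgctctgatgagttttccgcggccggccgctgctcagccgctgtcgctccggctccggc
LOC101928512: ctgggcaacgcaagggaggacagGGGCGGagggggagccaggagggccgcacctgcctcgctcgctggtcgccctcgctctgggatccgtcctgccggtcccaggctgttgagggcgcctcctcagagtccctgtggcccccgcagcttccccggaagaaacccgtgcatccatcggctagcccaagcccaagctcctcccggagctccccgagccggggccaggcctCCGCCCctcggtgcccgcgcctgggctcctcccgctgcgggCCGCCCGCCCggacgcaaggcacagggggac

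The share of G and C was 68.7% for FAM193A, 78.7% for HIP1, 69% for TMEM181 and 74.7% for LOC101928512, where the median was 58.7% over 35116 RefSeq windows and 62.3% over the 22199 of protein-coding genes. They held 22, 41, 36 and 27 CG dinucleotides, against medians of 14 and 21. The windows not printed ran lower in part. The other FAM193A window had 54% and 9 CG dinucleotides. The other 3 of LOC101928512 had 47%, 60% and 75.3%, with 8, 14 and 29. Under members in other hosts, the windows of LOC105370034 had 57% and 55.7% with 4 and 5, and that of LOC105369329 had 54.7% with 9. LINC02765 had 64% with 11, and HNRNPA1L2 had 61.3% with 23. LOC105376449 had 68% with 37, LOC105369728 had 72.3% with 33, and LOC105371912 had 83.3% with 44. A GC box, the binding sequence of SP and KLF factors, was in the 4 printed windows, and 45.0% of all RefSeq windows and 56.3% of those of protein-coding genes hold it. The ETS core CCGGAAG was found in the LOC101928512 window and in 10.3% of all windows, and the E box CACGTG in the TMEM181 window and in 7.26% of all windows, with both strands searched and overlaps between motifs allowed. The TATA box TATAAA was in none of the 4 and in 11.5% of all windows. The LOC101928512 window with 47% G and C held a TATA box and no GC box, as did the LOC105376449 window. The LOC105369329 window held neither, and every other window not printed held a GC box. A match describes the letters only.

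The FAM193A window lay across the ends of a pair of neighbouring peaks that the annotation placed in intron 3 of 4 of RNF4, a ubiquitin ligase for SUMO-modified proteins. They spanned chr4:2535105-2536459, with a fold of 12.05 (p 5.38e-16), and chr4:2536583-2538284, with a fold of 14.15 (p 2.18e-23). Both lay outside the RefSeq span of RNF4, more than 22 kb past the nearest start in the authors' annotation (22628 and 24106 bp). The former overlapped a wild-type peak (2535351 to 2536075, fold 6.02), and the latter had its nearest wild-type peak 507 bp away. In HIP1, an adaptor of clathrin-mediated endocytosis, the member covered a RefSeq start of HIP1 (chr7:75638208-75640760, intron 1 of 30, fold 11.96, p 3.58e-16). The HIP1 peak in the promoter class had a fold of 5.12 in the same list (75738196 to 75740149) and overlapped a wild-type promoter peak. The intronic one had its nearest wild-type peak 42430 bp away, where the median over all members was 72882.5 bp. In the authors' annotation the nearest start to the intronic HIP1 peak was 26365 bp away. The TMEM181 member had a fold of 8.38 in intron 1 of 16, and TMEM181 had no peak in the promoter class of either list. LOC101928512, a long non-coding RNA gene, starts under a member in intron 1 of 6 of CD247 with a fold of 6.81 (p 1.36e-10). CD247 encodes the zeta chain of the T cell receptor, and it had no promoter peak in either list.

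Intronic peaks had the lowest median fold, the lowest median width and the smallest share of low p-values among the classes of the overexpression list. Their median fold enrichment, the authors' ratio over their background, was 5.48 (5.26 to 5.70; range 3.13 to 15.7), against 7.65 (7.52 to 7.80) for promoter peaks and 5.76 (5.76 to 6.01) for distal intergenic peaks. Their median p was 0.000173, where the largest p listed was 0.001, and 118 members (24.4%) had a p above 0.0005. At a p of at most 1e-05 were 102 members (21.1%, 17.5 to 24.98), while 67.1% of all overexpression peaks, 73.3% of promoter peaks and 34.5% (30.9 to 38.3) of distal intergenic peaks passed it. The intervals of the intronic and distal shares did not overlap. A fold of 10 or more was reached by 10 members (2.07%), against 17.7% of all overexpression peaks. The median width was 1281.5 bp (1236 to 1345; middle range 1030 to 1743), against 1684 bp for promoter peaks and 1328 bp (1291 to 1379) for distal intergenic ones. The width interval overlapped those of distal intergenic, 3′ UTR and downstream peaks. The fold interval overlapped those of 3′ UTR, 5′ UTR, downstream and exon peaks. In the wild-type list intronic peaks had a median width of 771 bp, and 5.89% of them passed a p of 1e-05, where 11.2% of all wild-type peaks did; folds and p-values rank peaks within a list only.

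**Figure D1:**
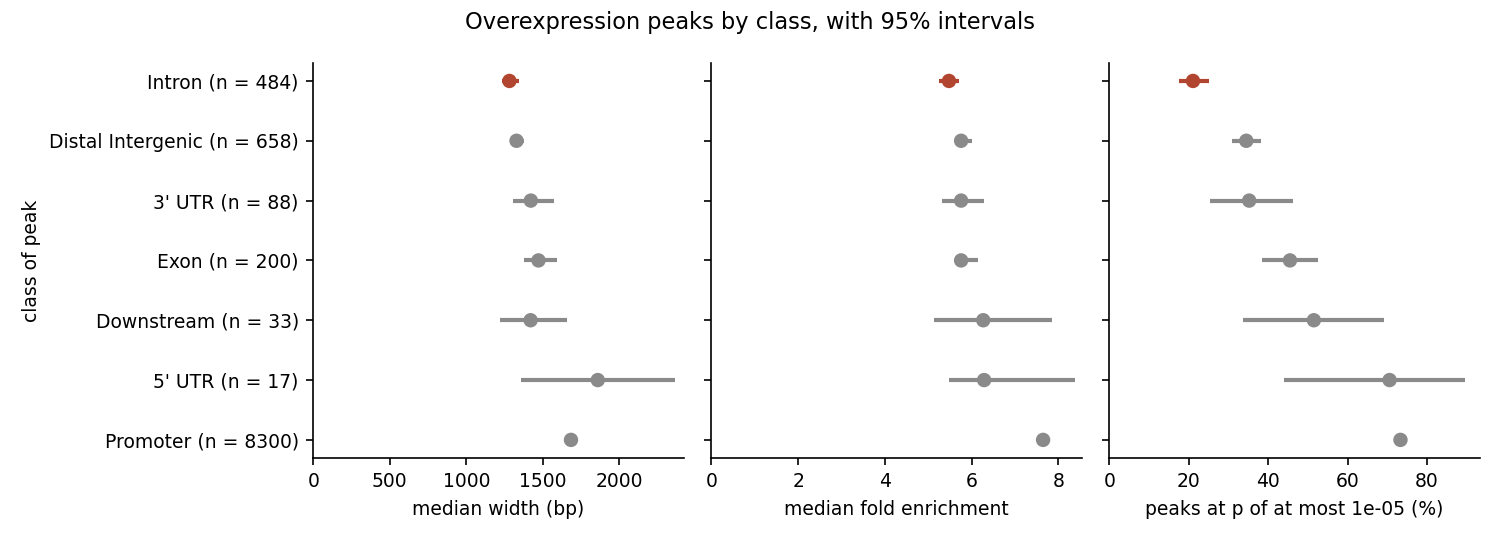
Median width in bp, median fold enrichment and percent of peaks at a p of at most 1e-05 for each class of overexpression peak, with 95% intervals as lines. Intronic peaks (red, n = 484) lie lowest in all 3 panels, at 1281.5 bp, 5.48 and 21.1%. In the width and fold panels their intervals overlap those of some other classes.

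The highest fold of all belonged to LDB3, a protein of the muscle Z-disc. Its peak at chr10:86710820-86712597 in intron 9 of 13 had a fold of 15.72 (p 3.11e-29), with no promoter peak of LDB3 in either list. The nearest wild-type peak was 67125 bp away, where the median over all members was 72882.5 bp. RASA3, a GTPase-activating protein for RAS and RAP, had the member with the lowest p, 2.61e-60. That peak was 5376 bp wide with a fold of 11.28 (chr13:114063447-114068822, intron 2 of 23), and 1 wild-type peak with a fold of 3.14 lay within it. XKR6, of the XK-related membrane protein family, had a peak of 4031 bp with a fold of 12.40. ENPEP, a glutamyl aminopeptidase, had a fold of 10.06 in a peak that lay outside the RefSeq span of the gene. The other 3 of the 10 highest lay in transcripts without a gene identifier. Their nearest annotated genes were SLC25A29 (fold 12.67), LINC02114 (11.68, with 157546 bp to its start) and YY1 (11.2). None had a wild-type overlap, which held for 459 of all 484 members. The RASA3 p-value was followed by those of CLDND1 (9.89e-50) and ELF1 (4.58e-49), in peaks of 6141 and 5860 bp with folds of 9.64 and 9.82. The CLDND1 peak lay outside the RefSeq span of CLDND1, with GPR15 as the gene of its nearest start.

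**Figure D2:**
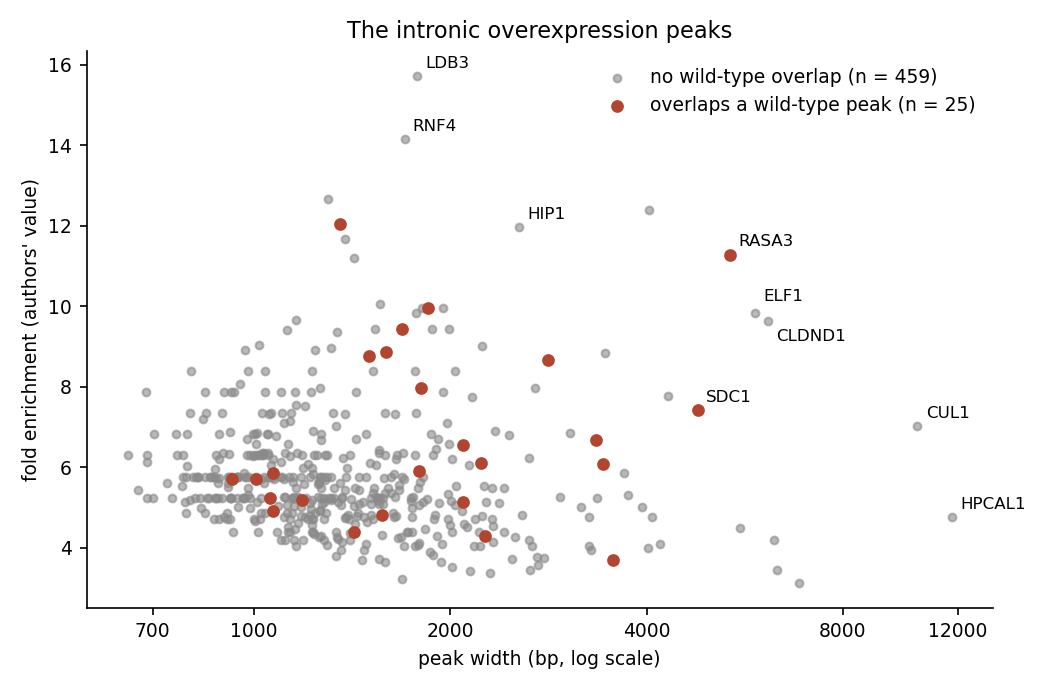
Fold enrichment against width in bp (log scale) for each of the 484 intronic overexpression peaks, with those that overlap a wild-type peak in red (n = 25). Most members lie below a fold of 8; LDB3 stands highest at 15.72, and the widest member, in HPCAL1 at 11738 bp, has a fold of 4.76.

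Widths of 5000 bp or more were found in 9 members. The 5 of these on chromosome 2 had folds of 3.13 to 4.76, and the other 4, in ELF1, RASA3, CLDND1 and CUL1, had folds of 7.02 to 11.28. HPCAL1, a neuronal calcium sensor of the visinin-like family, had 4 intronic peaks of 6272, 6347, 11738 and 4015 bp, with folds of 4.18, 3.45, 4.76 and 4. They fell in a stretch at chr2:9700678-10403529 that held 6 members with a median width of 6309.5 bp and a median fold of 4.09. That stretch held 21 overexpression peaks of all classes, of which 5 were promoter peaks, and 11 wild-type peaks, none of which overlapped the 6 members. A transcript without a gene identifier nearest to YWHAQ had the lowest fold of all members, 3.13, in a peak of 6853 bp in the same stretch. CUL1 encodes the scaffold of SCF ubiquitin ligases. Its intron 1 held peaks of 10402 bp (fold 7.02, p 2.88e-25) and 4315 bp (fold 7.77), and its promoter peak was 8809 bp wide with a fold of 16.4. CUL1 had no wild-type promoter peak.

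Intron 1 was the most frequent place. It held 207 members (42.8%, 38.3 to 47.3), followed by intron 2 with 84 (17.4%), intron 3 with 66 (13.6%) and intron 4 with 33 (6.82%). Introns 5 to 9 held 50 members and introns 10 or later 44. The lengths of the introns were not taken into account in these shares. Of intronic wild-type peaks 450 were in intron 1 (30.8%, 28.5 to 33.3), so the intervals of the 2 lists did not overlap. The share in intron 1 was also higher in the overexpression list within 10 kb of a start (48.4%, 41.6 to 55.2, against 36.4%, 31.7 to 41.4) and beyond 10 kb (38.1%, 32.2 to 44.3, against 28.7%, 26.04 to 31.6). Among peaks at a p of at most 1e-05 it was 52.0% (53 of 102) and 25.6% (22 of 86). In transcripts with 3 or more introns, the last intron held 9.37% of members and 9.24% of wild-type intronic peaks. By intron number, the median folds were 5.48 in intron 1, 5.25 in intron 2, 5.64 in intron 3 and 5.54 in later introns, with overlapping intervals. The 3 highest folds in a last intron were those near SLC25A29 and YY1, both in transcripts with 1 intron, and LINC01934 (9.65, intron 4 of 4).

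**Figure D3:**
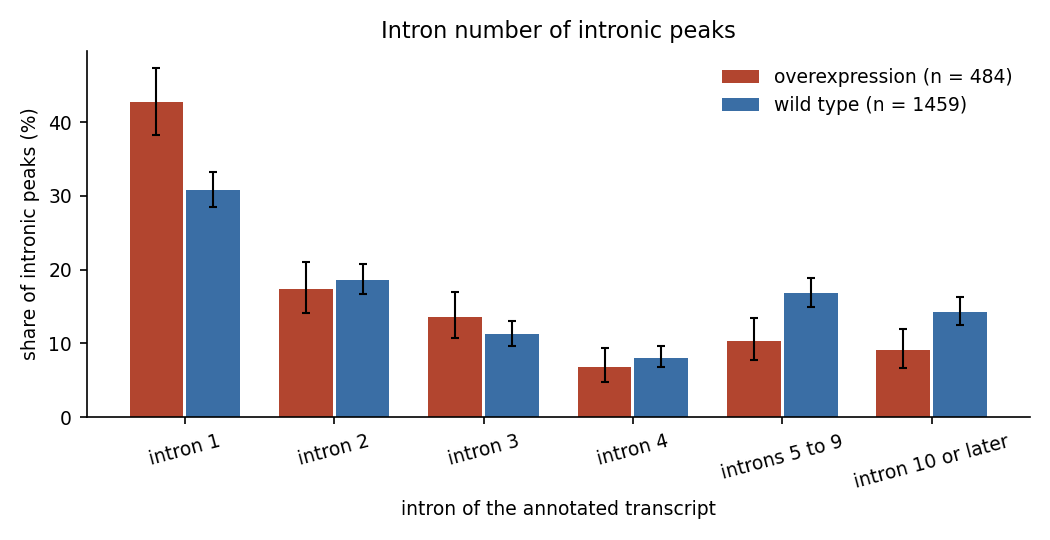
Percent of intronic peaks in each intron number, for the overexpression list (red, n = 484) and the wild-type list (blue, n = 1459), with exact 95% binomial intervals. Intron 1 holds 42.8% and 30.8%; later introns from the fifth on hold a larger share in the wild-type list.

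Members lay nearer to starts than wild-type intronic peaks. The median distance to the nearest start in the authors' annotation was 11572 bp (10071 to 13368), against 21052 bp (18925 to 22515) in the wild-type list. Within 10 kb lay 219 members (45.2%) and 27.3% of wild-type intronic peaks, and beyond 100 kb lay 23 members (4.75%) and 11.8%. The 5 farthest members were in transcripts without a gene identifier nearest to NUDT12 (889083 bp), SPHKAP (384674 bp), MEF2C-AS1 (369185 bp) and BUB3 (239596 bp), and in LINC01322 (264869 bp). The nearest other overexpression peak of any class was a median of 22730.5 bp away. Within 1 kb of an overexpression promoter peak lay 11 of 484 members (2.27%, 1.14 to 4.03). These include ZBTB38 (178 bp from a promoter peak of 12300 bp), ITGA4 (228 bp), BCOR (330 bp), ELF1 (575 bp) and SDC1 (619 bp). Of the 658 distal intergenic overexpression peaks, 0 lay within 1 kb of an overexpression promoter peak (0 to 0.559%). Within 5 kb lay 11.98% (9.23 to 15.2) of members and 4.71% (3.22 to 6.62) of distal intergenic peaks.

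The 484 peaks fell in 413 host transcripts or genes, of which 370 had a gene identifier. Host means the gene inside the annotation text. The gene column of the list names the gene with the nearest start instead, and it differed from the host for 79 of 438 members with a host identifier (18.0%). Hosts were protein-coding for 403 members (83.3%), long non-coding for 31 (6.40%) and pseudogenes for 3. Of 437 members whose host is in RefSeq, 48 (11.0%) lay outside the RefSeq span of that gene, as did the RNF4 pair and all 4 members given to EIF2B5. The protein-coding hosts were long genes, with a median length of 100017 bp (84766 to 115103), against 24092.5 bp for all RefSeq protein-coding genes and 141386 bp (132785 to 157990) for wild-type hosts.

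Many host genes also carried a promoter peak. Of the 438 members with a host identifier, 273 (62.3%, 57.6 to 66.9) had a host whose promoter was also listed with overexpression, where 33.8% of all protein-coding genes had one. A wild-type promoter peak was listed for the hosts of 82 (18.7%, 15.2 to 22.7), where 7.37% of all protein-coding genes had one. These are shares of members set beside shares of genes. A host with several members counts several times, its members are treated as separate in the intervals, and some hosts are not protein-coding. With 1 peak per host, 52.5% (47.6 to 57.4) of all 413 hosts had an overexpression promoter peak, against 56.4% of all 484 members. Among genes of 100 kb or more, 36.7% had an overexpression promoter peak. Wild-type intronic peaks lay in a host with an overexpression promoter peak in 52.7% of cases (49.9 to 55.5). Members in a host with a promoter peak were at a median of 9089 bp (7733 to 10233) from a start, and those without one at 15019 bp (11926 to 17314). Their median folds were 5.26 (5.24 to 5.54) and 5.76 (5.26 to 5.76). Each peak carries 1 gene name, so these shares miss promoters that neighbouring genes have in common.

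Several peaks in 1 host were found for 52 hosts (12.6%, 9.55 to 16.2), which held 123 members. Of these hosts 38 had 2, 9 had 3 and 5 had 4. Some were close neighbours, and with peaks closer than 5 kb counted as 1 there were 39 such hosts. With only peaks inside the RefSeq span of their host, a choice made after seeing the data, there were 43. Wild-type intronic peaks fell in 1098 hosts, of which 217 (19.8%, 17.4 to 22.2) had several and 1 had 12. That list had 1459 intronic peaks against 484, and the shares were not adjusted for this. ELF1, an ETS family transcription factor of lymphoid cells, had 4 peaks in its intron 1 between 40996536 and 41013128 on chromosome 13. Their folds were 5.54, 9.82, 4.39 and 8.91, and the promoter peak 575 bp further on had a fold of 10.09. No wild-type peak lay within 181455 bp of any of the 4. SDC1, syndecan-1 or CD138, the surface proteoglycan that marks plasma cells, had 3 peaks in intron 1, the widest 4794 bp (chr2:20205820-20210613, fold 7.42, p 1.12e-19). The other 2 had folds of 4.72 and 4.75, and the SDC1 promoter peak had a fold of 12.82 over 8199 bp. The widest SDC1 peak overlapped a wild-type peak of 1789 bp with a fold of 3.74, which the annotation placed in a 3′ UTR; SDC1 had no wild-type promoter peak.

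ABCG1, a cholesterol exporter, had folds of 3.81, 5.06, 5.65 and 6.29 in introns 3 and 6 with no promoter peak of its own in either list. SRRM3, a splicing regulator known from neurons, had folds of 5.7, 5.24, 6.23 and 6.11 in introns 1 and 2. The 4 peaks given to EIF2B5, a subunit of the translation factor eIF2B, were all placed in intron 15 of 15, and their nearest starts were those of ABCF3, VWA5B2, CHRD and MAGEF1. With 3 peaks each came RASA3, XXYLT1, RCC1L, SLX9, CUX1, GLIS1, MACROD1, SDC1 and a transcript on chromosome X. CUX1, a homeodomain transcription factor, had its peaks in introns 1, 12 and 18 of 22, with folds of 4.97, 5.48 and 6.34. In XXYLT1, a xylosyltransferase that modifies Notch, the folds were 7.86, 4.39 and 4.77. RCC1L had 5.48, 7.51 and 5.7, and only the last overlapped a wild-type peak (fold 5.47). SLX9, a ribosome biogenesis factor, had 4.27, 6.81 and 4.05. In GLIS1, a zinc finger transcription factor, they were 4.04, 5.09 and 5.26, and MACROD1, an ADP-ribosyl hydrolase, had 5.12, 5.24 and 4.03. The chromosome X transcript had folds of 5.36, 6.29 and 6.81 in its single intron, with MIR222 as the nearest annotated start, 12922 to 19156 bp away. Beyond RASA3, RCC1L and SDC1, none of these hosts had a member that overlapped a wild-type peak.

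**Figure D4:**
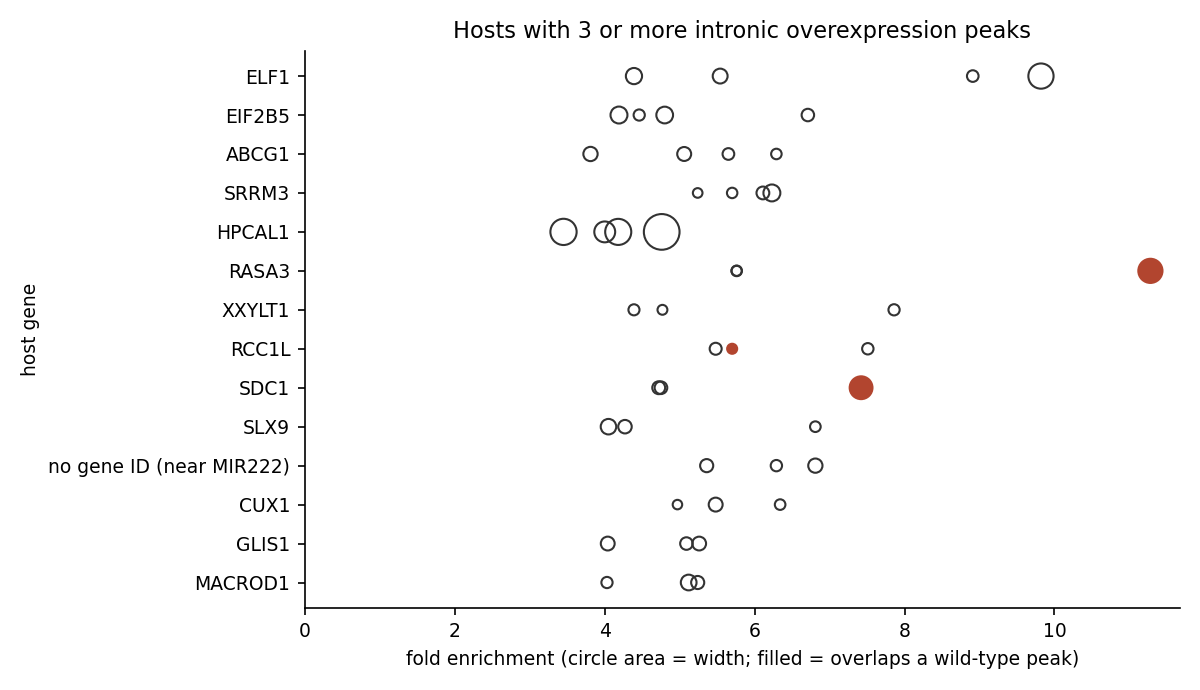
Fold enrichment of each intronic peak in the 14 hosts with 3 or more, with circle area proportional to width and filled circles for peaks that overlap a wild-type peak. RASA3 holds the highest fold (11.28) and HPCAL1 the widest circles at folds of 3.45 to 4.76; 3 circles are filled.

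Of the 484 members, 25 (5.17%, 3.37 to 7.53) overlapped a wild-type peak by at least 1 bp, where 10.9% of all overexpression peaks and 11.9% (11.2 to 12.6) of promoter peaks did; distal intergenic peaks stood at 5.93% (4.25 to 8.01). The share depended on the peaks kept in each list. It was 1.96% (0.238 to 6.90) with both lists held to a p of at most 1e-05. Against the whole wild-type list, 13 of the 102 members at that p overlapped. So did 13.04% (6.14 to 23.3) of members at or above the median fold of the overexpression list. Of the wild-type partners 24 were intronic, so 24 of 1459 wild-type intronic peaks met a member. In the whole wild-type list 22.2% of peaks overlapped an overexpression peak, and 1.92% (1.28 to 2.76) of its intronic peaks did. The 25 overlapping members were wider, with a median of 1793 bp (1425 to 2226) against 1268 bp (1231 to 1320) for the other 459, and 13 of the 25 were at a p of at most 1e-05. Their median fold was 6.07 (5.24 to 7.97) against 5.48. In 22 of the 25 pairs the overexpression peak was the wider one. Over the whole lists, the median width was 1621 bp with overexpression and 828.5 bp in wild-type cells. The wild-type partners had folds of 3.02 to 6.28. Intron 1 held 7 of the 25 overlapping members, and 207 of all 484. A host with an overexpression promoter peak was found for 18 of the 25, and for 273 of all 484.

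After RNF4 and RASA3, the strongest overlapping members were in ARID1B, a subunit of the SWI/SNF chromatin remodeller (fold 9.96, intron 5 of 19; wild-type partner 4.47), and KLF16, a Krüppel-like factor gene (9.43 and 5.08). PFKFB3, which makes the activator of glycolytic phosphofructokinase, had 8.85 and 3.89. TLE2, a Groucho family corepressor, had 8.77 and 3.99. In MYO9B, an unconventional myosin, the values were 8.67 and 4.09, and in ERCC1, of the excision repair nuclease, 7.97 and 3.02. EHD1, of endocytic recycling, had 6.67 and 3.41, PLEKHO2 6.54 and 4.89 in a peak outside its RefSeq span, and KLHL6, a B cell ubiquitin ligase adaptor, 6.11 and 3.63. KLHL6 and ARID1B had no promoter peak in either list. The values of a pair come from separate lists and give no direction.

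An intronic peak in both lists was found for 106 hosts, 25.7% (21.5 to 30.2) of the overexpression hosts and 9.65% (7.97 to 11.6) of the wild-type hosts. A wild-type intronic peak was hosted by 4.33% of all protein-coding genes and by 16.8% of those of 100 kb or more. For members these shares were 1.69% and 5.04%. Hosts in both lists were long genes, and the part of gene length in the sharing was not tested. In 24 of them a pair of peaks overlapped, and in 82 the peaks lay at different places. Over all members, the nearest wild-type peak of any class was a median of 72882.5 bp away, and 83 members (17.1%) had one within 10 kb.

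Hosts were looked up in 8 gene lists of 242 names. Of all protein-coding genes 1.69% hosted a member and 4.33% hosted a wild-type intronic peak, and of those of 100 kb or more 5.04% and 16.8% did. Of 35 B cell and plasma cell transcription factors, 3 were hosts (ELF1, RUNX1 and ZBTB38), and 7 hosted a wild-type intronic peak. ZBTB38, a zinc finger protein that binds methylated DNA, had a member with a fold of 7.97 (p 1.41e-21) beside its promoter peaks of 12300 and 15315 bp. RUNX1, a transcription factor of blood development, had a fold of 4.29 in intron 4 of 5, overlapping a wild-type peak of 3.07. Of 30 plasma cell surface and secretion genes, 2 were hosts. Besides SDC1 this was ITGA4, the alpha chain of the integrin VLA-4, with a fold of 5.22 over 3353 bp in intron 2. Of 29 myeloma translocation and mutation genes, 1 was a host: CCND3, cyclin D3, with a fold of 4.19 in intron 1, 16036 bp from a start. CD247 was the 1 host among 25 T cell, NK cell and myeloid genes. No host was found among 42 GRB2-RAS-MAPK signalling genes, 25 neuronal and adhesion genes and 16 housekeeping genes, which held 7, 9 and 1 wild-type hosts. A count of 0 of 42, 25 or 16 allows shares of up to 8.41%, 13.7% and 20.6%, all above the 1.69% of all protein-coding genes. AIMP1 had no intronic peak in the overexpression list.

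Members were unevenly spread over the chromosomes. Chromosome 7 held 56, chromosome 19 held 50 and chromosome 10 held 46, while chromosome 9 held 2 and chromosome 1, with the second most overexpression peaks of all, held 24. As a share of all overexpression peaks of a chromosome, intronic peaks were 12.6% (8.30 to 18.0) on chromosome 21, 11.8% (7.69 to 17.0) on chromosome 13, 9.85% (7.30 to 12.9) on chromosome 10 and 9.11% (6.95 to 11.7) on chromosome 7. They were 2.88% (1.86 to 4.26) on chromosome 1 and 0.606% (0.0735 to 2.17) on chromosome 9. Among wild-type intronic peaks chromosome 5 held the largest number (182, or 12.5%, against 6.40% of members), and chromosome 7 came next (161, or 11.04%, against 11.6% of members). Chromosomes 19, 21 and 22 held 10.3%, 5.17% and 2.07% of members and 1.64%, 0.480% and 0.274% of wild-type intronic peaks. The lists differed in the same direction there, and on chromosome 5, over peaks of all classes. Of 9780 overexpression and 4828 wild-type peaks, 846 and 190 lay on chromosome 19 and 199 and 25 on chromosome 21. Chromosome 22 held 276 and 40, and chromosome 5 held 530 and 537. On chromosome X there were 7 members and 2 wild-type intronic peaks, among 151 and 5 peaks of all classes. Copy number, gene density and depth by chromosome were not analysed here, and their part in these shares was not tested.

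**Figure D5:**
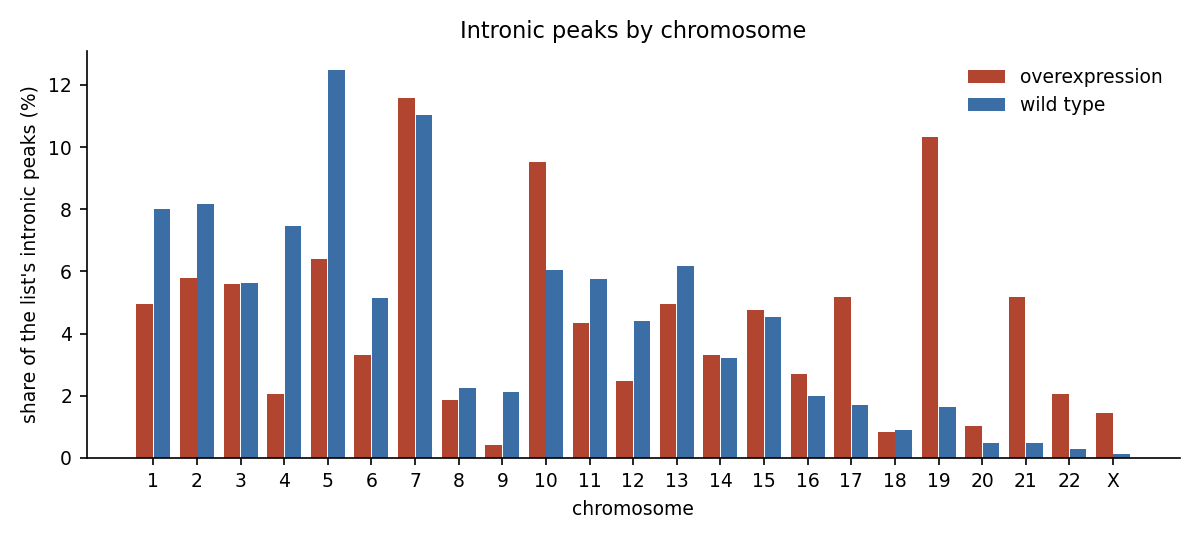
Percent of the intronic peaks of each list that lay on each chromosome, for the overexpression list (red, n = 484) and the wild-type list (blue, n = 1459). Chromosome 19 holds 10.3% and 1.64%, and chromosome 5 holds 6.40% and 12.5%. On both, peaks of all classes differ between the lists in the same direction.

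Grouped members stood close together in a few regions. Runs of at least 5 members with gaps of at most 500 kb were found 9 times. The longest in members was at chr5:374150-1952183, with 9 members in AHRR, CEP72-DT, TPPP, SLC6A18, TERT, LPCAT1 and transcripts without a gene identifier, and a median fold of 4.91. On chromosome 21, 8 members lay at 44705901 to 45707025 in hosts that include TSPEAR, SUMO3, SLX9, ADARB1 and COL18A1, and 6 at 42228301 to 42679423 in ABCG1, SLC37A1 and PDE9A. Neither chromosome 21 run held a wild-type peak of any class, and 37 and 12 overexpression peaks lay there. The whole of chromosome 21 had only 25 wild-type peaks, against 199 overexpression peaks. The run at chr11:64011957-64866752, with 7 members in MACROD1, FLRT1, STIP1, NRXN2 and EHD1, held 15 wild-type peaks, and 1 member overlapped. Around SDC1, 6 members lay at chr2:20097713-20617605 among 14 overexpression and 7 wild-type peaks, and 1 member overlapped. Chromosome 19 had 3 runs, of 5, 6 and 6 members, and the stretch with HPCAL1 on chromosome 2 was the last of the 9.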

How the data were processed

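H929 cells, an established human multiple myeloma line, were profiled by acetyl-H3 ChIP-seq, with an input library per group, and no file of the inputs was used here. Bowtie2, cutadapt, FastQC and Trimmomatic are named in the submitters' processing notes. Not given in the sources used here are the caller of the peaks, the cut-off, the build and any use of input. Per the file headers, each deposited peak has a fold enrichment (a ratio whose background the headers do not describe), a p-value of the authors and a class. Depth is unknown. Coordinates are 1-based as deposited. The build was checked by matching gene identifiers to RefSeq of GRCh38.p14: 99.8% of matched identifiers in each list lay at the same place, so RefSeq names, lengths, spans and start windows were used; 369 of 370 host identifiers matched. Host gene, intron number and class were read from the annotation text. Overlap meant at least 1 bp and was checked on simulated data (200 of 200 planted overlaps found among 1000 peaks). Shares have exact Clopper-Pearson and medians order-statistic 95% intervals. With 1 library per group no p-value is given between groups. Genes named are the 10 highest folds, the 5 widest, the 5 farthest from a start, hosts with 3 or more peaks, the 12 overlapping members with the highest fold, hosts in the gene lists, the 3 highest in last introns, and AIMP1; TIMM44, DHX16, CLDND1, BCOR, TMEM181, the genes in the windows and the hosts of runs were named after their values were seen. The members and lists were chosen with earlier results of these data known. Some results, among them those of 1 gene list, are not reported here. The software was matplotlib 3.10.9, scipy 1.17.1, numpy 2.4.6 and pandas 2.3.3 under Python 3.11.15.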

Additional observations from a re-analysis of the deposited data

How the results depend on the processing

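No paired analysis was possible because neither condition was sampled more than once. Of 33 alternatives, 18 stayed within the interval of the value or within 1.5 times the count. At a p of at most 1e-05, there were 102 members, 6 hosts with several, a median fold of 7.31, a median width of 1774.5 bp, 52.0% in intron 1 and 1.96% overlapping the wild-type list, which was held to the same p. At or above the median fold of the list (7.34), there were 69 members, 2 hosts with several, a median width of 1380 bp and 52.2% in intron 1. Of these members, 13.04% overlapped the wild-type list, which was kept whole. For 50.7% the host had a promoter peak among peaks of that fold (56.4% of all 484 at any fold). At least 10 kb from a start, 38.1% were in intron 1 and 46.4% had a host promoter peak. Chosen after seeing the data, members inside the RefSeq span of their host gave 63.0% with a host promoter peak. Fewer peaks enter under each of these choices, and no cause of the changed values was tested. By an overlap of 50% of either peak the wild-type share was 4.13%, and within 1 kb 5.99%. The unknown depth and the single libraries limit every statement between the lists.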
